A study of Ovis aries with 2 samples.

Results

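The ABCA genes encode full-length ATP-binding cassette transporters of subfamily A, large membrane proteins that move lipids. The features were searched by gene symbol for ABCA1, ABCA2, ABCA4, ABCA7, ABCA12 and ABCA13, and all 6 were found among the 13765 listed features, which carry 12652 distinct symbols. The RefSeq gene table of the assembly ARS-UI_Ramb_v3.0 holds 9 genes with an ABCA symbol, and those outside these 6 were not analysed here. The members were measured across neurons, astrocytes, oligodendrocytes and microglia in sheep cerebral cortex. The rule used gene symbols only, with no measured value.

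ABCA transporters use ATP to flip or export lipids across membranes. ABCA1 loads cholesterol and phospholipid onto apolipoproteins such as APOE and is a classic target of the liver X receptors (LXR), nuclear receptors that sense oxidised cholesterol. ABCA2 sits in late endosomes and lysosomes and is known from the rodent brain for its abundance in oligodendrocytes, the myelin-forming cells. ABCA7, related in sequence to ABCA1, handles phospholipids and is known as a human Alzheimer disease risk gene. ABCA4 is the retinoid-phospholipid flippase of photoreceptors, ABCA12 carries glucosylceramide into the lamellar granules of skin cells, and ABCA13 is a very long and less studied member.

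Droplet-based sequencing of nuclear RNA gave 2 single-nucleus libraries from the cortex of an adult wildtype female Rambouillet sheep aged 18 to 36 months, with no treatment in life and 1 batch label. The pre-processed library came from nuclei isolated straight from dissected tissue. The post-processed library came from tissue first cleared of debris and red blood cells, by its title and the series description, although its treatment label repeats the wording of the untreated library on this step. The study asks how such handling changes the cell types recovered. There was 1 library per condition, from 1 animal as the series describes it, so no test was possible, no p-value is given, and every interval is a 95% interval that covers counting error only.

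The pre-processed library held 9580441 unique molecular identifiers (UMIs, counted RNA molecules) in 2125 barcodes, all of which had at least 100 detected genes and were kept as nuclei. The post-processed library held 794203 UMIs in 905 barcodes, of which 494 were kept with 96.3% of its UMIs. Median depth was 2524 UMIs per kept nucleus before and 667.5 after processing. Classes were named from marker genes of clusters and carry the ending "-like". The pre-processed library gave 935 neuron-like, 357 astrocyte-like, 178 oligodendrocyte-like, 109 oligodendrocyte precursor-like, 86 microglia-like and 9 endothelial-like nuclei, with 451 unnamed. The post-processed library gave 181 microglia-like, 57 oligodendrocyte-like, 29 endothelial-like and 2 astrocyte-like nuclei, with 225 unnamed and no neuron-like or precursor-like nuclei. The 225 unnamed post-processed nuclei belong to 1 shallow cluster (median 229 UMIs) that raised 8 of the 9 listed microglial markers.

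The classes were checked against their markers. Microglial markers, 9 of which were listed, summed in microglia-like nuclei to 10408 counts per 1000000 UMIs (CPM) before processing, with ADAM28 at 0, and to 9902 CPM after it. The leading genes of that cluster also include the immune genes CD86 and IL1A. In oligodendrocyte-like nuclei the 4 listed oligodendrocyte markers summed to 5049 and 5934 CPM. Markers of other classes were present as well. Oligodendrocyte markers reached 1841 and 2140 CPM in microglia-like nuclei, and the 18 listed neuronal markers reached 4601 CPM there before and 2100 CPM after processing. No barcode was shared between the libraries. The ABCA genes were kept out of the genes used for clustering, so the classes were not drawn from their values.

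ABCA1 was a gene of microglia-like and astrocyte-like nuclei. In the pre-processed library its level was 782 CPM in microglia-like nuclei (640.5 to 944, from 107 UMIs), 555 CPM in astrocyte-like nuclei (510.5 to 601) and 417 CPM in oligodendrocyte precursor-like nuclei (346 to 499). It was 165 CPM in oligodendrocyte-like nuclei (122 to 218) and 48.9 CPM in neuron-like nuclei (43.6 to 54.7). In that order no neighbouring intervals overlapped. The 9 endothelial-like nuclei had 601 CPM from 11 UMIs (300.1 to 1076), an interval that spans the microglial and the astrocytic level. In the post-processed library ABCA1 stood at 995 CPM in microglia-like nuclei (909 to 1086), 723 CPM in endothelial-like nuclei (506 to 1001) and 93.4 CPM in oligodendrocyte-like nuclei (49.7 to 159.7). The microglial and endothelial intervals overlapped there, and both lay above the oligodendrocyte level. The shallow unnamed cluster had 923 CPM (706 to 1186), which overlaps the microglia-like level of the same library.

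The share of nuclei with an ABCA1 UMI was also higher in these classes than in neuron-like nuclei at matched depth. After each nucleus was thinned to 200 UMIs, 19.9% of post-processed microglia-like nuclei (14.3 to 26.5%), 14.0% of pre-processed microglia-like nuclei (7.42 to 23.1%) and 13.2% of astrocyte-like nuclei (9.84 to 17.1%) held an ABCA1 UMI. Neuron-like nuclei, which had the lowest level, reached 1.28% (0.665 to 2.23%). Without thinning the shares were 73.5%, 60.5%, 70.0% and 22.0%, at median depths of 1540, 1294.5, 2605 and 4955 UMIs. At 200 UMIs the pre-processed share was 6.18% in oligodendrocyte-like (3.12 to 10.8%) and 4.59% in precursor-like nuclei (1.51 to 10.4%). Both intervals overlapped the microglia-like and astrocyte-like ones of that library. The microglia-like, astrocyte-like and oligodendrocyte-like shares there lay above the neuronal one without overlap, and the precursor-like share overlapped it. At 500 UMIs the pre-processed share was 33.7% in microglia-like (23.9 to 44.7%) and 22.1% in astrocyte-like nuclei (17.9 to 26.8%). It was 17.4% in precursor-like (10.8 to 25.9%), 8.43% in oligodendrocyte-like (4.79 to 13.5%) and 3.32% in neuron-like nuclei (2.26 to 4.67%). The neuronal share then lay below all the others without overlap. The oligodendrocyte-like share lay below the microglia-like and astrocyte-like ones without overlap, and the precursor-like share overlapped both. The post-processed library had no neuron-like nuclei to set beside its share. Post-processed barcodes with fewer than 100 detected genes held ABCA1 at 724 CPM (448 to 1107), which overlaps the microglia-like level of that library, and the part of free RNA was not tested.

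**Figure D1:**
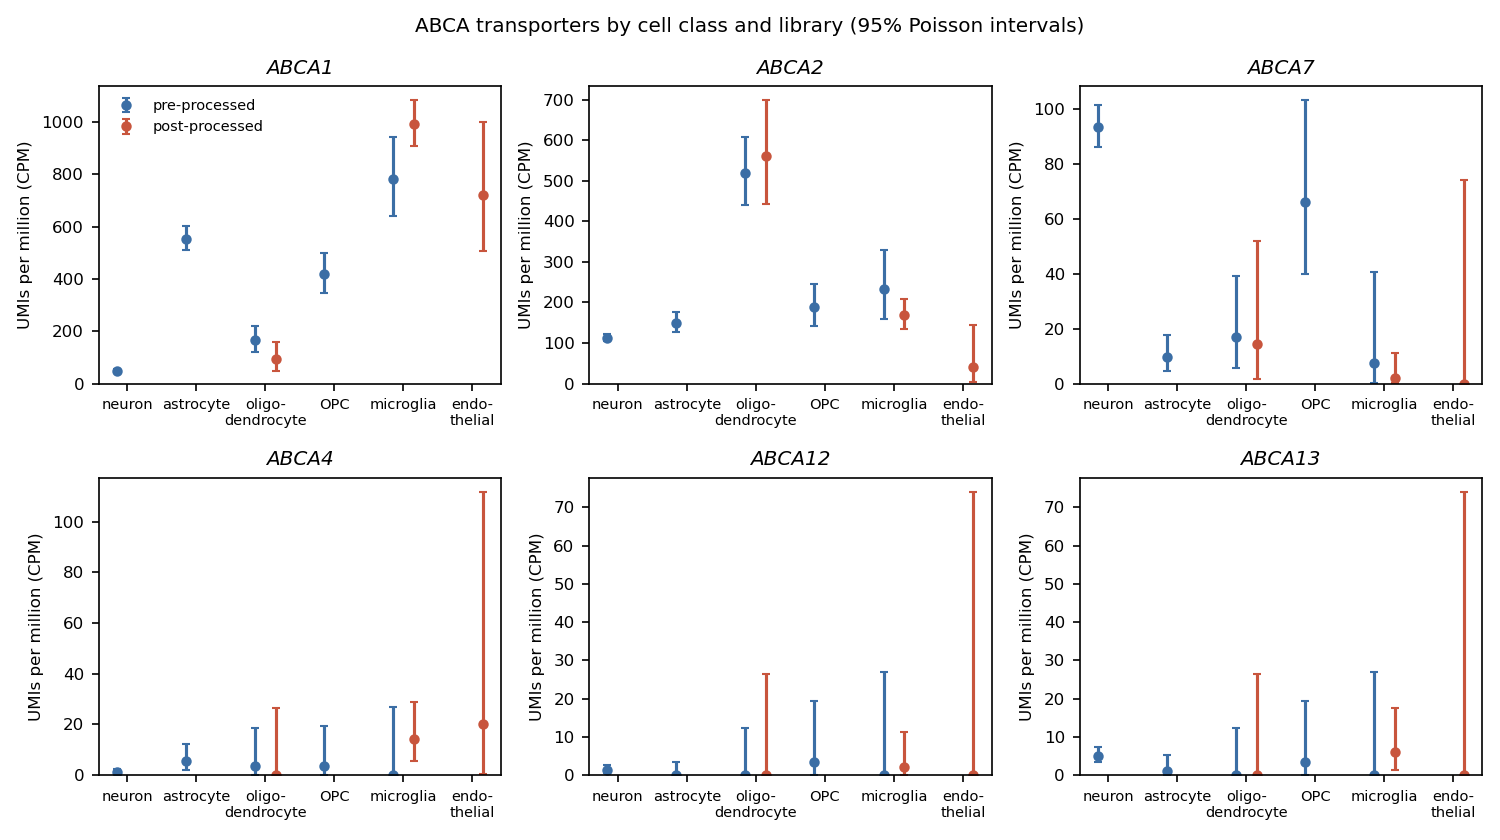
Level of each ABCA gene (y axis, CPM, UMIs of the gene per 1000000 UMIs of the class; scales differ between panels) by cell class and library, with 95% Poisson intervals as bars. Classes with fewer than 20 nuclei in a library are left out. ABCA1 peaks in microglia-like nuclei of both libraries, ABCA2 in oligodendrocyte-like nuclei of both, and ABCA7 in neuron-like nuclei, while ABCA4, ABCA12 and ABCA13 stay near 0 in most classes.

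Against neuron-like nuclei of the same library, ratios of at least 2-fold were counted as calls, which is a rule of size and not a test, for genes with 10 or more UMIs over both sums. In microglia-like nuclei 4 members could be measured, of which 2 were higher and 1 was lower, where 54.8% of 7499 genes passed in either direction, 37% higher and 17.8% lower. ABCA1 had a log2 ratio of 4.0 (3.67 to 4.32). ABCA2 had 1.07 (0.49 to 1.56), a call that depended on how classes were drawn: it was -0.53 (-2.30 to 0.56) at clustering resolution 1.0 in place of 0.5, -0.67 (-2.43 to 0.42) with the libraries clustered apart and 0.29 (-0.64 to 0.99) with classes from marker UMIs. The 14 microglia-like nuclei with at least 75% own-class marker UMIs held 0 ABCA2 UMIs, which allows up to 186 CPM. The member on the lower side, ABCA7, rested on 1 microglial UMI. In astrocyte-like nuclei 5 members could be measured, with 2 higher and 2 lower, against 46.7% of 7701 genes, 27.3% higher and 19.4% lower. Of these, ABCA4 was higher on 6 and 8 UMIs, and ABCA13 lower on 1 astrocytic UMI with overlapping intervals. The astrocyte log2 ratio of ABCA1 was 3.50 (3.30 to 3.71). In precursor-like nuclei 5 could be measured, with 2 higher and none lower, against 39.5% of 7472 genes, 23.5% higher and 16% lower. ABCA1 there had a log2 ratio of 3.10 (2.78 to 3.4), which was 2.07 with classes from marker UMIs, and the other call, ABCA12, rested on 1 UMI. With shares of called genes this high, the number of members called says little. The median gene had a log2 ratio of 0.56 in microglia-like, 0.32 in astrocyte-like, 0.20 in precursor-like and 0.08 in oligodendrocyte-like nuclei over neuron-like nuclei.

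ABCA2 was a gene of oligodendrocyte-like nuclei in both libraries. Its level there was 519 CPM before processing (440.0 to 607, from 154 UMIs) and 560.3 CPM after it (443 to 699, from 78 UMIs). In the rest of the pre-processed library it was 234 CPM in microglia-like nuclei (159.9 to 329.9), 188 CPM in precursor-like nuclei (141 to 245), 150.3 CPM in astrocyte-like nuclei (128 to 176) and 113 CPM in neuron-like nuclei (105 to 122). The microglial, precursor and astrocytic levels overlapped with their neighbours, and the neuronal level lay below the astrocytic. The 9 pre-processed endothelial-like nuclei held no ABCA2 UMI, which allows up to 164 CPM. In the post-processed library it was 169 CPM in microglia-like nuclei (135 to 209), 40.2 CPM in endothelial-like nuclei (4.86 to 145) and 303 CPM in the shallow unnamed cluster (185 to 468). The oligodendrocyte level stood above the microglia-like level without overlap in both libraries. In the post-processed library its interval overlapped that of the shallow unnamed cluster.

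Of the members, 4 could be measured between oligodendrocyte-like and neuron-like nuclei, with 2 higher and 2 lower, against 50% of 7461 genes called, 24.8% higher and 25.2% lower. ABCA2 had a log2 ratio of 2.20 (1.94 to 2.45) and ABCA1 of 1.77 (1.29 to 2.19). ABCA7 was on the lower side, and so was ABCA13, whose 0 UMIs in oligodendrocyte-like nuclei allow up to 10.1 CPM, more than its neuronal level, so no fold is given. Between oligodendrocyte-like and microglia-like nuclei ABCA1 and ABCA2 went opposite ways. Before processing, where 35.1% of 4519 genes were called, 12% higher and 23% lower, both measurable members were called, ABCA1 at a log2 ratio of -2.24 (-2.76 to -1.74) and ABCA2 at 1.13 (0.59 to 1.75). After processing, where 46.1% of 4924 genes were called, 15.7% higher and 30.4% lower, the ratios were -3.36 (-4.33 to -2.63) for ABCA1 and 1.73 (1.27 to 2.19) for ABCA2. Both directions held in all alternatives run, but the sizes did not. ABCA1 after processing lay between -1.37 and -1.06 at resolution 1.0, with libraries clustered apart and with classes from marker UMIs, and ABCA2 between 2.80 and 3.46 in these. Before processing ABCA2 was 2.59 at resolution 1.0 and 2.66 with libraries apart. In nuclei with at least 75% own-class marker UMIs it was 17 UMIs in 21 oligodendrocyte-like against 0 in 14 microglia-like nuclei, at least 2.85-fold higher with 3 counts in the group at 0.

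At matched depth the share of nuclei with an ABCA2 UMI was higher in oligodendrocyte-like than in neuron-like nuclei. Its intervals overlapped those of the other glial classes at 200 UMIs, but none of those given below at 500 UMIs. At 200 UMIs the share was 10.1% before processing (6.10 to 15.5%) and 14.0% after it (6.26 to 25.8%), compared with 3.42% in neuron-like nuclei (2.35 to 4.80%). In microglia-like nuclei it was 4.65% (1.28 to 11.5%) and 2.76% (0.903 to 6.33%). It was 4.59% in precursor-like (1.51 to 10.4%) and 4.20% in astrocyte-like nuclei (2.37 to 6.84%). At 200 UMIs the oligodendrocyte interval of each library overlapped the microglial one. At 500 UMIs, with shallower nuclei left out, the oligodendrocyte-like share was 24.7% before processing (18.6 to 31.7%) and 39.3% after it (26.5 to 53.2%). In microglia-like nuclei it was 6.98% (2.60 to 14.6%) and 5.20% (2.41 to 9.65%). Before processing it was 7.28% in astrocyte-like (4.81 to 10.5%), 8.26% in precursor-like (3.85 to 15.1%) and 6.63% in neuron-like nuclei (5.12 to 8.42%). The oligodendrocyte intervals overlapped none of these. Unthinned, 53.9% and 68.4% of oligodendrocyte-like nuclei and 47.1% of neuron-like nuclei held an ABCA2 UMI. Median depths were 1490.5, 2434 and 4955 UMIs, and the pre-processed levels differed 4.6-fold.

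The ABCA2 level of microglia-like nuclei differed between nuclei with and without oligodendrocyte marker RNA. In the post-processed library the 82 microglia-like nuclei without any oligodendrocyte marker UMI held 2 ABCA2 UMIs, or 19.9 CPM (2.41 to 71.9), and the 99 nuclei with at least 1 such UMI held 82, or 206 CPM (164 to 256). In the pre-processed library the levels were 131 CPM in 32 nuclei without (42.5 to 305, from 5 UMIs) and 274 CPM in 54 nuclei with marker UMIs (180.3 to 398), and those intervals overlapped. The nuclei with marker UMIs were also deeper, at median UMIs of 2666 against 1058.5 after and 1426.5 against 1129 before processing. ABCA1 did not follow this split: it was 1144 CPM without (945 to 1374) and 957 CPM with marker UMIs (863 to 1058) after processing, and 889 CPM (616 to 1243) and 739.7 CPM (579.8 to 930.1) before it. The part of oligodendrocyte RNA in the microglial ABCA2 level was not tested.

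**Figure D2:**
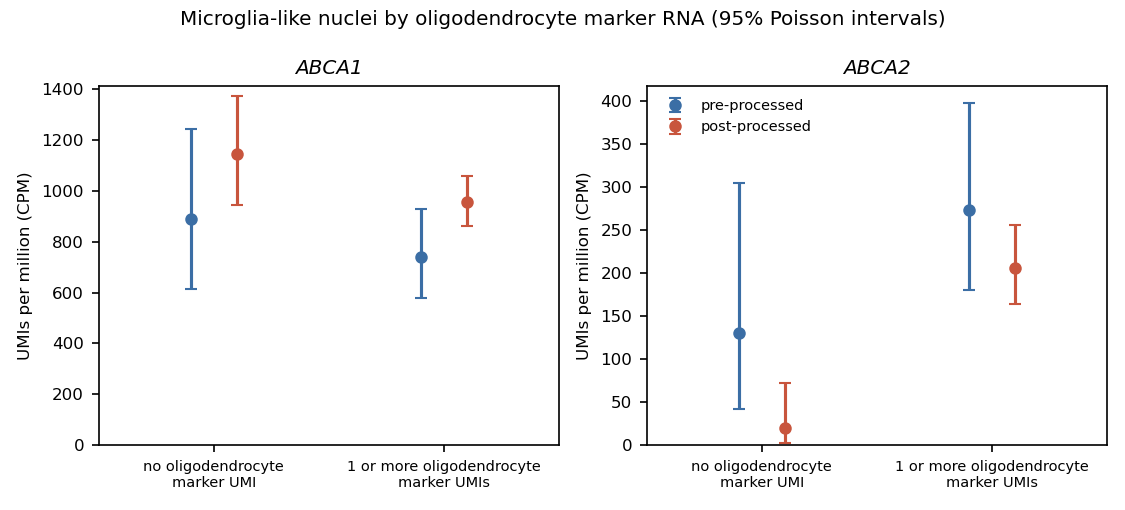
ABCA1 and ABCA2 levels (y axis, CPM) in microglia-like nuclei without and with oligodendrocyte marker UMIs, by library, with 95% Poisson intervals as bars. ABCA2 in post-processed nuclei is 19.9 CPM without and 206 CPM with marker UMIs, and the ABCA1 intervals of each library overlap between the groups.

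A finer clustering showed the same contrast within microglia-like nuclei. At resolution 1.0, a cluster held 57 pre-processed and 22 post-processed of these nuclei. Among its leading genes were P2RY12 and CSF1R, genes of a purinergic receptor and a growth factor receptor of microglia. It had ABCA1 at 1032 CPM (807 to 1299) and 1100.2 CPM (747 to 1562) and ABCA2 at 71.6 CPM (23.3 to 167) and 106 CPM (22.0 to 311). A cluster of 128 post-processed nuclei, led among others by the immediate early gene FOS and the cytokine gene IL1A, had ABCA1 at 1145 CPM (1025 to 1275) and ABCA2 at 58.5 CPM (34.1 to 93.6). A cluster in which the oligodendrocyte gene ERMN was among the leading genes beside P2RY12 held 27 of these nuclei in each library. By its markers that cluster was named oligodendrocyte-like at this resolution. There ABCA1 was 499 CPM (336 to 712) before and 717 CPM (598 to 854) after processing, and ABCA2 was 399 CPM (256 to 594) and 353 CPM (271 to 453). The ABCA2 level was higher in the cluster with ERMN than in the others. The intervals did not overlap, except for the 22 post-processed nuclei of the P2RY12 and CSF1R cluster. Over both libraries the median was 2814 UMIs in the ERMN cluster, 1135 in the P2RY12 and CSF1R cluster and 1487 in the FOS cluster. The part of depth in these levels was not tested. In the other direction, oligodendrocyte-like nuclei with no microglial marker UMI kept ABCA1 levels of 169.8 CPM (124 to 227) and 101 CPM (50.5 to 181).

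ABCA7 was a gene of neuron-like nuclei, followed by precursor-like nuclei. In the pre-processed library its level was 93.4 CPM in neuron-like nuclei (86.0 to 101, from 586 UMIs) and 66.1 CPM in precursor-like nuclei (39.8 to 103, from 19 UMIs), with overlapping intervals. It was 16.8 CPM in oligodendrocyte-like nuclei (5.47 to 39.3), 9.51 CPM in astrocyte-like nuclei (4.56 to 17.5) and 7.30 CPM in microglia-like nuclei (0.185 to 40.7, from 1 UMI). These last levels overlapped among themselves and lay below the neuronal level. Over neuron-like nuclei the log2 ratio was -3.23 in astrocyte-like nuclei (-4.36 to -2.41), -2.34 in oligodendrocyte-like nuclei (-4.10 to -1.24), -3.09 in microglia-like nuclei (-8.98 to -1.19) and -0.46 in precursor-like nuclei (-1.24 to 0.16). With classes from marker UMIs it was -1.68 in astrocyte-like and -1.15 in microglia-like nuclei, and the astrocyte value was -4.6 in nuclei with at least 75% own-class marker UMIs. At 200 UMIs, 3.42% of neuron-like nuclei (2.35 to 4.80%) and 0.280% of astrocyte-like nuclei (0.00709 to 1.55%) held an ABCA7 UMI, and unthinned the shares were 38.8% and 2.80%.

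In the post-processed library ABCA7 had 4 UMIs in all. Of these, 2 were in oligodendrocyte-like nuclei (14.4 CPM, 1.74 to 51.9), 1 in microglia-like nuclei (2.01 CPM, 0.0509 to 11.2) and 1 in the shallow unnamed cluster. ABCA7 in microglia-like nuclei was thus 1 UMI in each library. Neuronal markers made up 24.3% of the class marker UMIs of the pre-processed microglia-like nuclei, and their part in that UMI was not tested. In the RefSeq table ABCA7 overlaps no other gene and lies between CNN2 and ARHGAP45.

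Among the clusters closest to neurons ABCA7 ranged from 48.4 to 203 CPM. It was highest in a cluster of 89 nuclei led by ALK, NXPH1, SST and LHX6, the last a transcription factor of inhibitory interneurons in mice, at 203 CPM (167 to 243), and in a cluster of 217 nuclei led by KCNH8 and COL9A1 at 196 CPM (169 to 225). An unnamed cluster of 67 nuclei closest to neurons, led by SEMA3E, DPP4, NPFFR2 and FOXP2, followed at 119 CPM (88.0 to 158). The level was 63.7 CPM (45.1 to 87.4) in 100 nuclei led by TRPC7 and RELN, 60.1 CPM (52.2 to 69.0) in 482 nuclei led by FREM1 and 49.0 CPM (34.1 to 68.1) in 47 nuclei led by LAMB1. The unnamed cluster led by FBN2 had 48.4 CPM (31.6 to 71.0). The ALK and KCNH8 clusters overlapped with each other and with no other. Median depth was 5953 UMIs in the ALK cluster and 2884 in the KCNH8 cluster, 4628 in the SEMA3E cluster, 6161 and 5670 in the TRPC7 and FREM1 clusters, and 15542 and 11419 in the LAMB1 and FBN2 clusters. The part of depth in these levels was not tested.

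At resolution 1.0 the cluster of ALK and SST nuclei parted. ABCA7 was 238 CPM (189 to 296) in 53 nuclei led by NXPH1, KCNC2 and ALK, and 149 CPM (102 to 209) in 36 nuclei led by SST, with overlapping intervals. A cluster of 71 nuclei led by THSD7B and IGF1, which also had VIP, an interneuron gene, among its leading genes, was at 46.4 CPM (27.0 to 74.3), below both without overlap. In 54 nuclei led by RELN the level was 84.1 CPM (53.3 to 126), which overlapped the SST and THSD7B clusters.

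**Figure D3:**
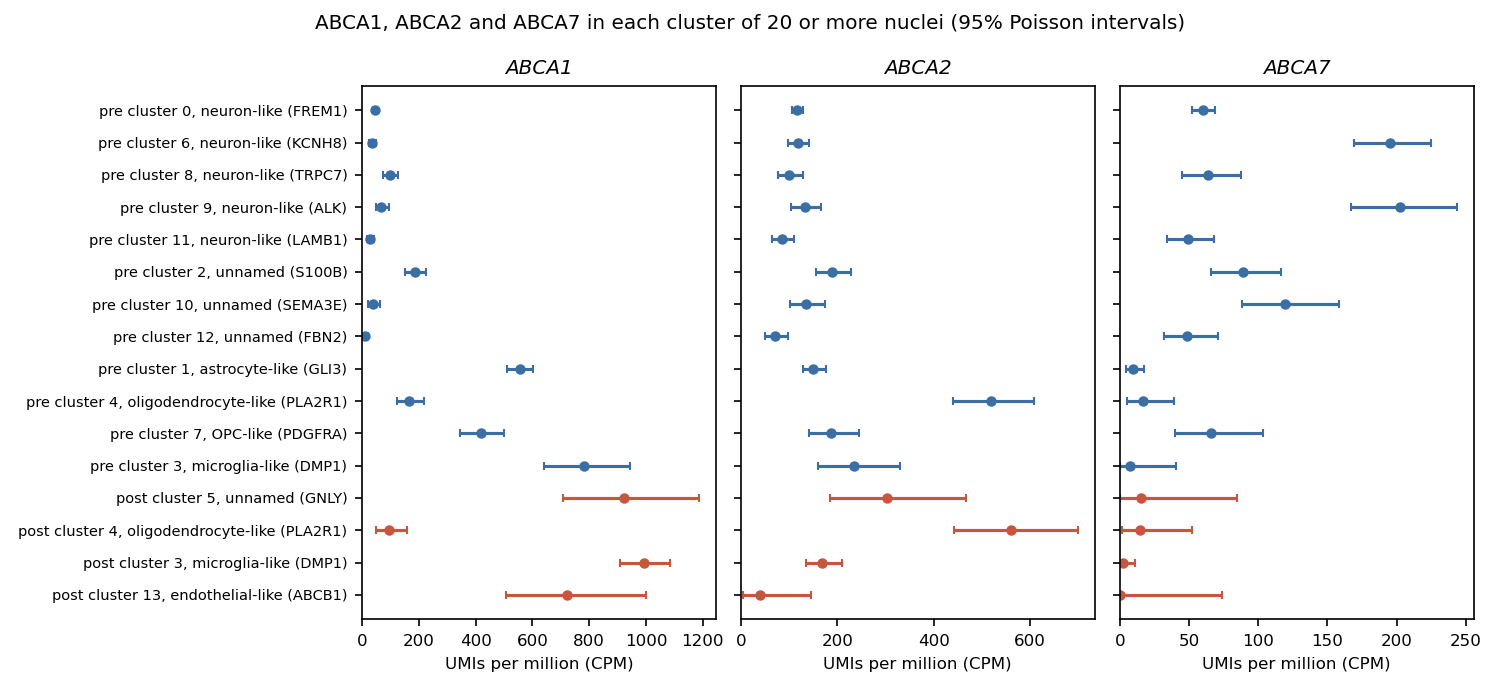
ABCA1, ABCA2 and ABCA7 (x axis, CPM) in every cluster with at least 20 nuclei in a library, labelled by library, cluster number, class name and leading gene, with 95% Poisson intervals as bars. ABCA7 is highest in the neuronal clusters led by ALK (203 CPM) and KCNH8 (196 CPM). ABCA2 lies between 70.8 and 134 CPM in the neuronal clusters and in the unnamed clusters led by SEMA3E and FBN2.

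ABCA1 and ABCA2 did not share the ABCA7 pattern among neurons. ABCA1 was highest in the TRPC7 cluster at 97.2 CPM (73.8 to 126) and low in the KCNH8 cluster at 35.1 CPM (24.4 to 48.8), and the unnamed FBN2 cluster had 9.31 CPM (3.02 to 21.7). ABCA2 lay between 70.8 and 134 CPM in all neuronal clusters and in the unnamed clusters led by SEMA3E and FBN2. A further unnamed cluster of 338 nuclei led by S100B, an astrocyte marker, and closest to neurons in its markers had ABCA1 at 186 CPM (153 to 225), ABCA2 at 189.8 CPM (156 to 229) and ABCA7 at 88.8 CPM (66.1 to 117).

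ABCA13 was rare. The pre-processed library held 52 UMIs, of which 32 were in 26 neuron-like nuclei (5.10 CPM, 3.49 to 7.20) and 18 in 14 unnamed nuclei. The SEMA3E cluster, whose markers were closest to neurons, had 24.9 CPM (11.9 to 45.8, from 10 UMIs), above the 4.69 CPM (2.68 to 7.62) of the FREM1 cluster without overlap. Microglia-like and oligodendrocyte-like nuclei of that library had none, which allows up to 21.9 and 10.1 CPM. The post-processed library held 4 UMIs, 3 of them in microglia-like nuclei. The gene overlaps LOC114114478 in the RefSeq table, a gene with 137 and 100 UMIs, so its counts are uncertain.

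ABCA12 was near the limit of detection. The pre-processed library held 13 UMIs, 9 of them in 7 neuron-like nuclei (1.43 CPM, 0.656 to 2.72), 1 in a precursor-like nucleus and 3 in unnamed nuclei, and the post-processed library held 2. Astrocyte-like nuclei had 0, which allows up to 2.85 CPM.

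ABCA4 was rare in both libraries, and most of its post-processed UMIs came from 1 nucleus. The pre-processed library held 19 UMIs in as many nuclei, never more than 1 in a nucleus, with 8 in neuron-like and 6 in astrocyte-like nuclei. The astrocyte level of 5.71 CPM (2.09 to 12.4) was higher than the neuronal level of 1.27 CPM (0.550 to 2.51) by a log2 ratio of 2.19 (0.36 to 3.88), on 6 and 8 UMIs. The post-processed library held 23 UMIs, of which 14 were in 1 nucleus with 10446 UMIs, 7 in 5 microglia-like nuclei, 1 in an endothelial-like nucleus and 1 in a barcode under 100 genes. All 7 of the microglia-like UMIs came from the 99 nuclei that also held oligodendrocyte marker RNA, which held 79.8% of the UMIs of the class. The pre-processed microglia-like nuclei had none, which allows up to 21.9 CPM.

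The nucleus rich in ABCA4 was counted as astrocyte-like by its cluster, but held 1 astrocyte marker UMI and had 19 neuronal and 15 microglial marker UMIs, so it gets no class name here. The gene that led it was TRPM3, an ion channel gene, with 563 UMIs against 79 in the rest of the post-processed library. Others were PRSS12, encoding a serine protease, with 63 UMIs, the bicarbonate transporter gene SLC4A10 with 58, the sulfate transporter gene SLC13A4 with 30 and the transcription factor gene LMX1A with 18. ABCA4 ranked at position 19 by the ratio to the rest of the library. The nucleus and its genes were chosen after their values were seen.

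Between the libraries over all nuclei, ABCA1 and ABCA4 were higher after processing and ABCA7 was lower. All 6 members had 10 or more UMIs, with 2 higher, 1 lower and 3 within 2-fold, where 56.1% of 8344 genes passed in either direction, 32% higher and 24.1% lower. In such sums over all nuclei, fewer cells of a type and less RNA per cell cannot be told apart, and the class mix differed, with neuron-like nuclei at 935 against 0. The median gene stood at 0.37 on the log2 scale. ABCA1 stood at 136 CPM before and 792 CPM after processing. Its log2 ratio was 2.54 (2.40 to 2.68), or 2.17 relative to the median gene. ABCA2 went from 137 to 240.5 CPM, at 0.82 (0.58 to 1.04) and 0.45 relative to the median gene. ABCA7 went from 78.2 to 5.23 CPM, at -3.73 (-5.78 to -2.54).

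The rarer members gave weaker or less even differences. ABCA4 stood at 1.98 CPM before and 28.8 CPM after processing, with a log2 ratio of 3.85 (2.90 to 4.82), and without the nucleus that held 14 of its UMIs the ratio was 2.47 (1.02 to 3.68). ABCA13 had a log2 ratio of -0.26 (-2.79 to 1.16) and ABCA12 of 0.48 (-5.46 to 2.68), both with intervals spanning 0.

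With classes drawn at resolution 0.5, the ABCA1 and ABCA2 differences between the libraries within a class were small. Some passed 2-fold with classes drawn in other ways. Among microglia-like nuclei ABCA1 had a log2 ratio of 0.34 (0.04 to 0.66) and ABCA2 of -0.48 (-1.07 to 0.17), so 0 of 2 measurable members were called, against 27.9% of 5112 genes, 11.9% higher and 16% lower. In nuclei with at least 75% own-class marker UMIs, 14 before and 89 after processing, ABCA1 was at 0.80 (-0.01 to 1.89). ABCA2 had 0 UMIs before and 7 after processing in these nuclei, which gives no ratio. In microglia-like nuclei ABCA2 was at -1.06 (-2.81 to 0.95) with the libraries clustered apart. With classes from marker UMIs it was at -1.11 (-2.12 to -0.01). Among oligodendrocyte-like nuclei ABCA2 had 0.12 (-0.30 to 0.51) and ABCA1 -0.78 (-1.83 to 0.08), again 0 of 2, against 24.2% of 4107 genes, 7.16% higher and 17% lower. The ABCA1 value in oligodendrocyte-like nuclei changed sign with the way classes were drawn, to 0.78 at resolution 1.0, 1.29 with the libraries clustered apart and 1.5 with classes from marker UMIs. At resolution 1.0 the class took in 27 post-processed nuclei that were microglia-like at resolution 0.5 and held 126 ABCA1 UMIs, against 13 in the 57 nuclei of the class itself. Before processing it took in 28 microglia-like nuclei with 35 and 45 astrocyte-like nuclei with 46 ABCA1 UMIs, beside 49 in its own 178. For ABCA1 the 2.54 over all nuclei thus stood beside 0.34 within microglia-like nuclei.

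**Figure D4:**
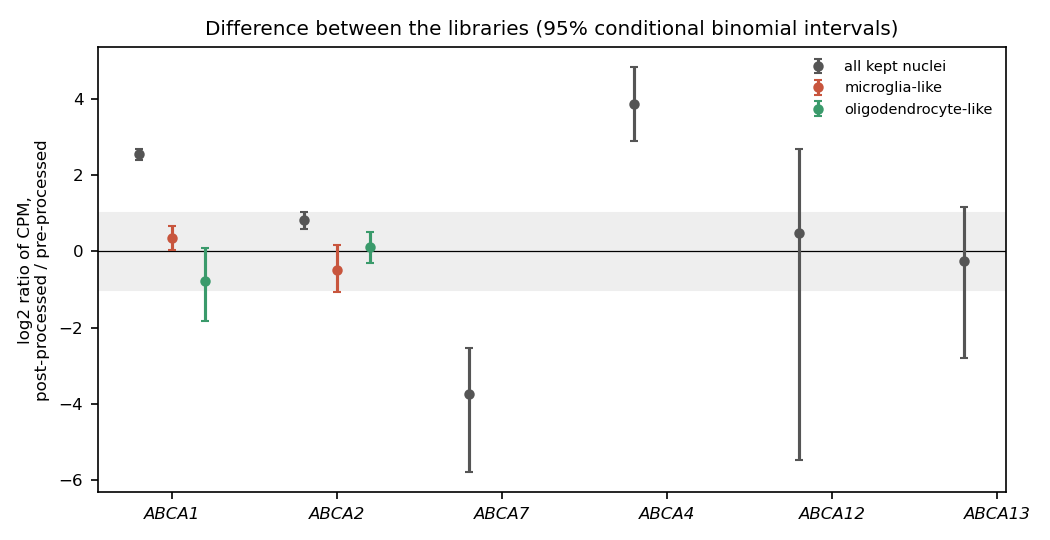
Log2 ratio of post-processed over pre-processed CPM (y axis) for each ABCA gene over all kept nuclei and within microglia-like and oligodendrocyte-like nuclei, with 95% conditional binomial intervals as bars; the grey band marks less than 2-fold. ABCA1 is at 2.54 over all nuclei and at 0.34 in microglia-like nuclei, and ABCA7 is at -3.73 over all nuclei. Points need at least 10 UMIs over both sums.

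Other genes with the most similar profiles over 16 points (clusters of at least 20 nuclei in a library) were ranked among 5787 genes, by Pearson correlation of log2(CPM + 10). The points share libraries and depth. ABCA1 was most like GPBP1L1 (0.947), ZFP36L1 (0.945) and CDC14A (0.940). ABCA2 was most like KIAA1191 (0.966), SUGCT (0.95) and CERCAM (0.939). ABCA7 was most like ADAM23 (0.940), KCNK10 (0.925) and CACNA1A (0.919), the last a calcium channel gene of neurons. ABCA13 was most like SYT6 (0.881), TTC39A (0.822) and SPINK5 (0.800), on few UMIs.

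The members were set beside the other genes of their pathways. Of 19 genes of cholesterol efflux and the LXR pathway, 5 were listed and measurable over all nuclei, where 3 were higher after processing, against 32% of all genes (median log2 ratio 1.45, against 0.37 over all genes). RXRG, an LXR partner gene, had 32 UMIs before and 0 after processing, and its 0 allows a level above the one before. Within microglia-like nuclei 2 of 4 were higher, against 11.9% of all genes, and RXRA at -0.59 (-1.24 to 0.13) and ABCG1 at -0.70 (-1.79 to 0.57) were within 2-fold. LPCAT3, an LXR target that remodels phospholipids, went from 4 to 72 UMIs, a log2 ratio of 2.15 (0.89 to 4.22). NPC2, which hands cholesterol out of lysosomes, was at 1.44 (-0.03 to 3.99). The LXR partner gene RXRA was at 170.3 CPM in astrocyte-like and 197 CPM in pre-processed microglia-like nuclei against 41.6 CPM in neuron-like nuclei, the same side as ABCA1. ABCG1, which like ABCA1 exports cholesterol, was higher in oligodendrocyte-like nuclei, at 232 CPM (181 to 294) and 216 CPM (145 to 308), than in microglia-like nuclei at 73.0 CPM (35.0 to 134) and 46.2 CPM (29.3 to 69.3). ABCG1 and ABCA1 thus lay on opposite sides of these 2 classes. Post-processed endothelial-like nuclei had both, with ABCG1 at 442 CPM (277 to 669) and ABCA1 at 723 CPM (506 to 1001).

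Of 21 genes of cholesterol synthesis and uptake, 11 were listed. Within microglia-like nuclei 1 was higher and 5 were lower after processing, against 11.9% and 16% of all genes (median log2 ratio -0.76, against -0.10 over all genes). Over all nuclei 3 were higher and 5 lower, against 32% and 24.1%. The synthesis gene LSS was at -2.59 (-3.32 to -2.01), while the cholesterol carrier gene STARD4 was at 1.93 (1.30 to 2.50) and INSIG2, a brake on sterol synthesis, at 1.62 (1.09 to 2.09). LSS had 9 UMIs in post-processed microglia-like nuclei, the class in which ABCA1 was highest.

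Of 12 genes of phagocytosis and lipid uptake, 5 were listed, and 4 were higher over all nuclei, against 32% of all genes. MEGF10, a receptor of glial engulfment, was at 3.25 (3.09 to 3.42) and ELMO1, which acts downstream of such receptors, at 2.28 (2.23 to 2.34). MERTK, an engulfment receptor, shared with ABCA1 high levels in astrocyte-like nuclei (1590 CPM, 1514 to 1668) and microglia-like nuclei (1183 and 882 CPM) and a low one in neuron-like nuclei (24.9 CPM). Within microglia-like nuclei 1 of 5 was higher, against 11.9% of all genes.

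Of 15 genes of myelin lipid synthesis, 7 were listed. Over all nuclei 6 were higher and 1 was lower, against 32% and 24.1% of all genes. Within oligodendrocyte-like nuclei 0 of 6 were higher and 1 was lower, against 7.16% and 17%, which is near the background. CERS2, a ceramide synthase gene, was at 2.76 (2.42 to 3.09) over all nuclei, and UGT8, a galactosylceramide synthase gene that is also a marker of the class, at 2.39 (2.27 to 2.50). ELOVL6, a fatty acid elongase gene, was at -1.90 (-2.33 to -1.54). ABCA2, at 0.82 over all nuclei and 0.12 within oligodendrocyte-like nuclei, stood below CERS2 and UGT8 over all nuclei.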

How the data were processed

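Per the values in the files, the authors deposited raw UMI counts, whole numbers for each gene in each barcode. DRAGEN is named in the submitters' processing notes. No version, genome build, annotation or barcode calling rule is given in the sources used here, and coordinates are therefore left out. UMI totals refer to the listed genes only.

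The minimum for a nucleus was 100 detected genes. Seurat 5.3.0 (R 4.3.3) clustered the libraries jointly (log-normalised to 10000, 2000 variable genes without ABCA symbols, 30 principal components, resolution 0.5) without integration. ABCA1, ABCA4 and ABCA13 would otherwise have been among the variable genes. A cluster was named when at least 3 markers of a class were raised 1.5-fold over the 25th percentile of the other clusters. It stayed unnamed when another class had more markers among its 10 leading genes (of at least 20 UMIs), or when its median UMIs lay under the library median divided by 2 with no own marker among them. Scrublet in scanpy 1.11.5 called 4 of 2125 and 0 of 494 nuclei, practically none, and no doublets were removed.

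CPM are UMI sums over class totals per 1000000. Ratios used 0.5 added counts. Intervals are exact Poisson (CPM), Clopper-Pearson (shares) and conditional binomial (ratios), from scipy 1.17.1 under Python 3.11.15. A count of 0 allows up to 3 counts. The ratio code was checked on simulated counts.

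The members, gene lists, markers and naming rule were chosen with earlier results of these data known. All members are named, with the 3 most similar genes for members with 50 UMIs and up to 4 genes per pathway list (the highest and lowest ratios with at least 20 UMIs); other pathway genes were chosen after their values were seen. Alternatives changed resolution, variable genes, clustering, class assignment, gene minimum, doublets, scale, added counts and thinning depth. The split by the other class's markers, the exclusion of the nucleus rich in ABCA4 and the neuronal levels at resolution 1.0 were chosen after seeing the data.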

Additional observations from a re-analysis of the deposited data

Results flagged for a closer look

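The 411 post-processed barcodes with fewer than 100 detected genes entered only the alternative without a minimum of detected genes, yet held RNA of the members. They had 21 ABCA1 UMIs in 18 barcodes, or 724 CPM (448 to 1107), and 13 ABCA2 UMIs in 11 barcodes, or 448 CPM (239 to 767). Both lie above the 103 CPM that a count of 0 allows in their 28995 UMIs. ABCA4, ABCA12 and ABCA13 had 1 UMI each and ABCA7 had 0. Whether these barcodes are nuclei or free RNA was not tested.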

How the results depend on the processing

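No paired analysis was possible because each condition has 1 library, so that none can be left out. Of 99 alternatives for 11 main ratios, 83 left the value within its counting interval, 16 moved it, and none turned the sign of a ratio past 2-fold. ABCA2 between the libraries in oligodendrocyte-like nuclei, at 0.12, was -0.06 at resolution 1.0 and -0.27 with libraries clustered apart. On the log2 scale, ABCA1 in astrocyte-like over neuron-like nuclei was 3.21 at resolution 0.2, 3.29 with libraries clustered apart and 3.82 in nuclei with at least 75% own-class marker UMIs. ABCA7 in the same contrast was -1.68 with classes from marker UMIs and -4.6 in the 75% nuclei. ABCA2 in oligodendrocyte-like over neuron-like nuclei was 1.84 with classes from marker UMIs. In post-processed oligodendrocyte-like over microglia-like nuclei, ABCA1 was -1.37 at resolution 1.0, -1.33 with libraries apart and -1.06 from marker UMIs, and ABCA2 was 2.80, 3.46 and 2.85, with 3.42 in the 75% nuclei. On a scale set by the median gene the differences between the libraries over all nuclei were 2.17 for ABCA1 and 0.45 for ABCA2. ABCA1 within microglia-like nuclei was 0.80 in the 75% nuclei, 89 after and 14 before processing. The cause of these moves was not tested. Outside the 11, ABCA2 within microglia-like nuclei was -1.11 from marker UMIs, and ABCA2 in microglia-like over neuron-like nuclei turned from 1.07 to -0.53 at resolution 1.0 and -0.67 with libraries apart. In 7 further cases 1 group held 0 UMIs and no ratio was given. Without a minimum of UMIs, 60.3% of genes passed 2-fold between the libraries over all nuclei, 35.3% in microglia-like and 39.6% in oligodendrocyte-like nuclei. Of 88 alternatives for 10 other ratios, 75 left the value within its interval, 11 moved it and the 2 above reversed a ratio past 2-fold. By sign alone, 6 of the 88 changed, in 3 ratios. Besides the 2 above, ABCA1 between the libraries in oligodendrocyte-like nuclei went from -0.78 to 0.78, 1.29 and 1.5. ABCA13 between the libraries over all nuclei went from -0.26 to 0.05 without a minimum of detected genes. Thinned to 500 UMIs, all 6 shares tried rose, which follows from keeping more UMIs and is no check of them. At that depth the ABCA2 share of oligodendrocyte-like nuclei no longer overlapped that of microglia-like nuclei in either library. The pre-processed ABCA1 share of precursor-like nuclei no longer overlapped the neuronal one. Depth limits ABCA4, ABCA12 and ABCA13 everywhere, and ABCA7 outside neuron-like and precursor-like nuclei.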

Other observations

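ABCA4 belongs to the retinoid cycle, whose genes were counted beside it. Of 14 genes of that list 8 were listed and 6 could be measured over all nuclei, with 3 higher and 2 lower after processing, against 32% and 24.1% of all genes. RPE65, the isomerase gene of the retinal pigment epithelium, was at 331 CPM in astrocyte-like nuclei (297 to 368, from 348 UMIs) and 3.03 CPM in neuron-like nuclei (1.82 to 4.73), a log2 ratio of 6.74 (6.11 to 7.52). Over all nuclei it had 401 UMIs before processing and 0 after it, which is at least 10.7-fold lower with 3 counts in the library at 0. Of the 2 post-processed nuclei in the astrocyte-like clusters, 1 was the nucleus rich in ABCA4. ALDH1A1, which oxidises retinal, was at 76.1 CPM in astrocyte-like nuclei against 1.91 CPM in neuron-like nuclei.

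The 16 other ABC transporter genes served as a comparison for the members. Over all nuclei 13 could be measured, with 5 higher and 3 lower after processing, shares near the 32% and 24.1% of all genes. ABCB1, a drug exporter of the blood-brain barrier, was at 3575 CPM in post-processed endothelial-like nuclei (3069 to 4140) and had a log2 ratio of 4.13 (3.83 to 4.43) over all nuclei. ABCB1 led that cluster, so its level there is a description. ABCG2, another barrier exporter, was at 2129 CPM (1743 to 2575) in the same nuclei, against 40.2 CPM for ABCA2. ABCD2, which carries fatty acids into peroxisomes, was at 304 CPM in astrocyte-like nuclei (272 to 339.6) and 80.6 CPM in neuron-like nuclei (73.8 to 88.0), and had a log2 ratio of -4.92 (-8.29 to -3.39) over all nuclei. ABCB6 was at -1.63 (-2.65 to -0.87) and ABCB11, with 9 and 14 UMIs, at 4.26 (2.97 to 5.67).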
